A study of Mus musculus with 16 samples.

Results

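RNA of 10 genes of the ATF4 pathway, which answers a shortage of amino acids and other stresses, was read here in colon organoids. The groups differed by region, guide and medium, and none was set up as a shortage of amino acids. The genes were the transcription factor gene Atf4, the amino acid synthesis genes Phgdh, Psat1 and Asns, the cystine transporter gene Slc7a11, the glutathione-degrading enzyme gene Chac1, and the regulator genes Trib3, Ddit3, Atf3 and Sesn2. They were taken by name, and the rule used no measured value. They are 10 of the 54123 genes to which reads were summed, and all 10 were among the 15289 genes with enough reads to be tested. Their estimated read counts ran from 34 (Trib3) to 6022 (Slc7a11) per library.

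The data are 16 RNA-seq libraries of mouse colon organoids in 8 groups of 2, formed by region (proximal colon or distal colon), guide RNA (scramble-sgRNA, the control, or Cdx2-sgRNA, against the intestinal transcription factor gene Cdx2) and medium (WENR-plus or WENR-minus). The WENR-plus medium supplies EGF together with Wnt3a, Noggin and R-spondin 1 as conditioned media, and the WENR-minus medium lacks them, so that withdrawal of the factors and of the conditioned media cannot be told apart. All groups came from 8-week-old female mice that were heterozygous for a Cre-inducible Braf V600E allele and for a tdTomato reporter. Whether these groups received Cre is not given in the sources used here. Per the study's methods Cas9 and the guide were delivered by lentivirus, and the Cdx2-sgRNA organoids grew from single cells and carried a frameshift in both alleles, a cloning step not described for the Scramble-sgRNA organoids. A Cdx2-sgRNA line is therefore 1 clone, and both replicates of a group derive from different mice (2 in all). In the fourth month all organoids grew for 2 days in WENR-plus medium, and 3 further days in one of the media preceded RNA extraction.

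Total counts ran from 12465194 to 18922143 per library. Levels of single genes are given as CPM (counts scaled to library size, with TMM scaling between libraries). Summed levels of marker lists are CPM without the TMM scaling, so they are not on the scale of the single genes. Cdx2 RNA stood at 127 to 203 CPM in proximal Scramble-sgRNA and at 29.9 to 73.9 CPM in proximal Cdx2-sgRNA libraries, while the distal guide groups overlapped in WENR-minus medium; a frameshift need not lower the RNA. All 6 epithelial markers (among them Epcam, Cdh1 and Vil1) had more than 3 reads in every library, with a summed level of 4575 to 14314 CPM. The fibroblast list summed to at most 1.07 CPM, with Col1a2, Col3a1, Dcn and Lum at 3 reads or fewer in every library. The immune list reached 6.67 to 21.96 CPM in proximal Cdx2-sgRNA WENR-minus and 2.53 to 10.02 CPM in proximal Cdx2-sgRNA WENR-plus libraries against at most 0.987 CPM elsewhere, with Cd3e at 3 reads or fewer throughout.

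ATF4 is the effector of a stress pathway that starts with phosphorylation of the translation factor eIF2alpha. The kinase GCN2 does this when uncharged tRNAs build up for want of amino acids, and PERK, PKR and HRI do so under other stresses. General translation then slows while Atf4 mRNA is translated more, so that Atf4 RNA is not a reading of ATF4 protein. ATF4 binds, mostly with C/EBP partners, to C/EBP-ATF response elements and activates genes for amino acid synthesis, import and tRNA charging together with genes that feed back on the pathway. In the gut, the same enzymes and transporters also supply dividing crypt cells.

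Promoter sequence was read for the genes to show what the C/EBP-ATF response element looks like in them. In the RefSeq windows of 250 bases before to 50 bases after each start (GRCm38.p6), the 8-letter motif TGATGNAA was searched on both strands, and it was found in the windows of 5 of the 10 genes (Asns, Trib3, Chac1, Slc7a11 and Atf3), against 3.97% of all 32851 windows (1304). Slc7a11 held 2 matches in opposite orientation, and 23 of all windows (0.07%) held 2 or more. The stretches of up to 48 bases that hold the matches upstream of the start are given 5′ to 3′ on the gene's strand with the motif in capitals. A match is a description of letters and not a shown binding site, and the 5 genes without one can hold elements outside these windows or of other letters.
Asns, chr6:7693210-7693252, minus strand: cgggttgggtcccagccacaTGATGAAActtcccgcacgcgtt
Slc7a11, chr3:50443652-50443699, minus strand: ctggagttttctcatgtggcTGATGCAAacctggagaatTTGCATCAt
Chac1, chr2:119351029-119351076, plus strand: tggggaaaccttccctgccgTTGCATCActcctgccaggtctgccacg
Atf3, chr1:191183416-191183463, minus strand: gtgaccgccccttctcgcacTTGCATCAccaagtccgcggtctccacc
The Asns match begins 23 bases before the start, those of Slc7a11 at 66 and 47, that of Atf3 at 110 and that of Chac1 at 193 bases before it. The Trib3 match lies 15 bases after its start. All matches outside Asns carry the form TGATGCAA or its reverse complement, except that of Trib3.

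Scaled for transcript length, Atf4 was the most abundant of the genes with a median of 114 TPM (a share of all transcripts that accounts for their length) over the 16 libraries. The synthesis genes Asns (84.6), Phgdh (52.9) and Psat1 (41.1) came next in median TPM, followed by Slc7a11 (27.1) and Atf3 (22.8). Ddit3 (14.7), Trib3 (6.48), Sesn2 (5.58) and Chac1 (4.93) were lowest on that scale. Between the highest and the lowest group mean in CPM, Psat1 spanned 8.27-fold, Atf3 7.98-fold and Chac1 6.42-fold, whereas Sesn2 spanned 2.15-fold and Atf4 1.76-fold.

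**Figure D1:**
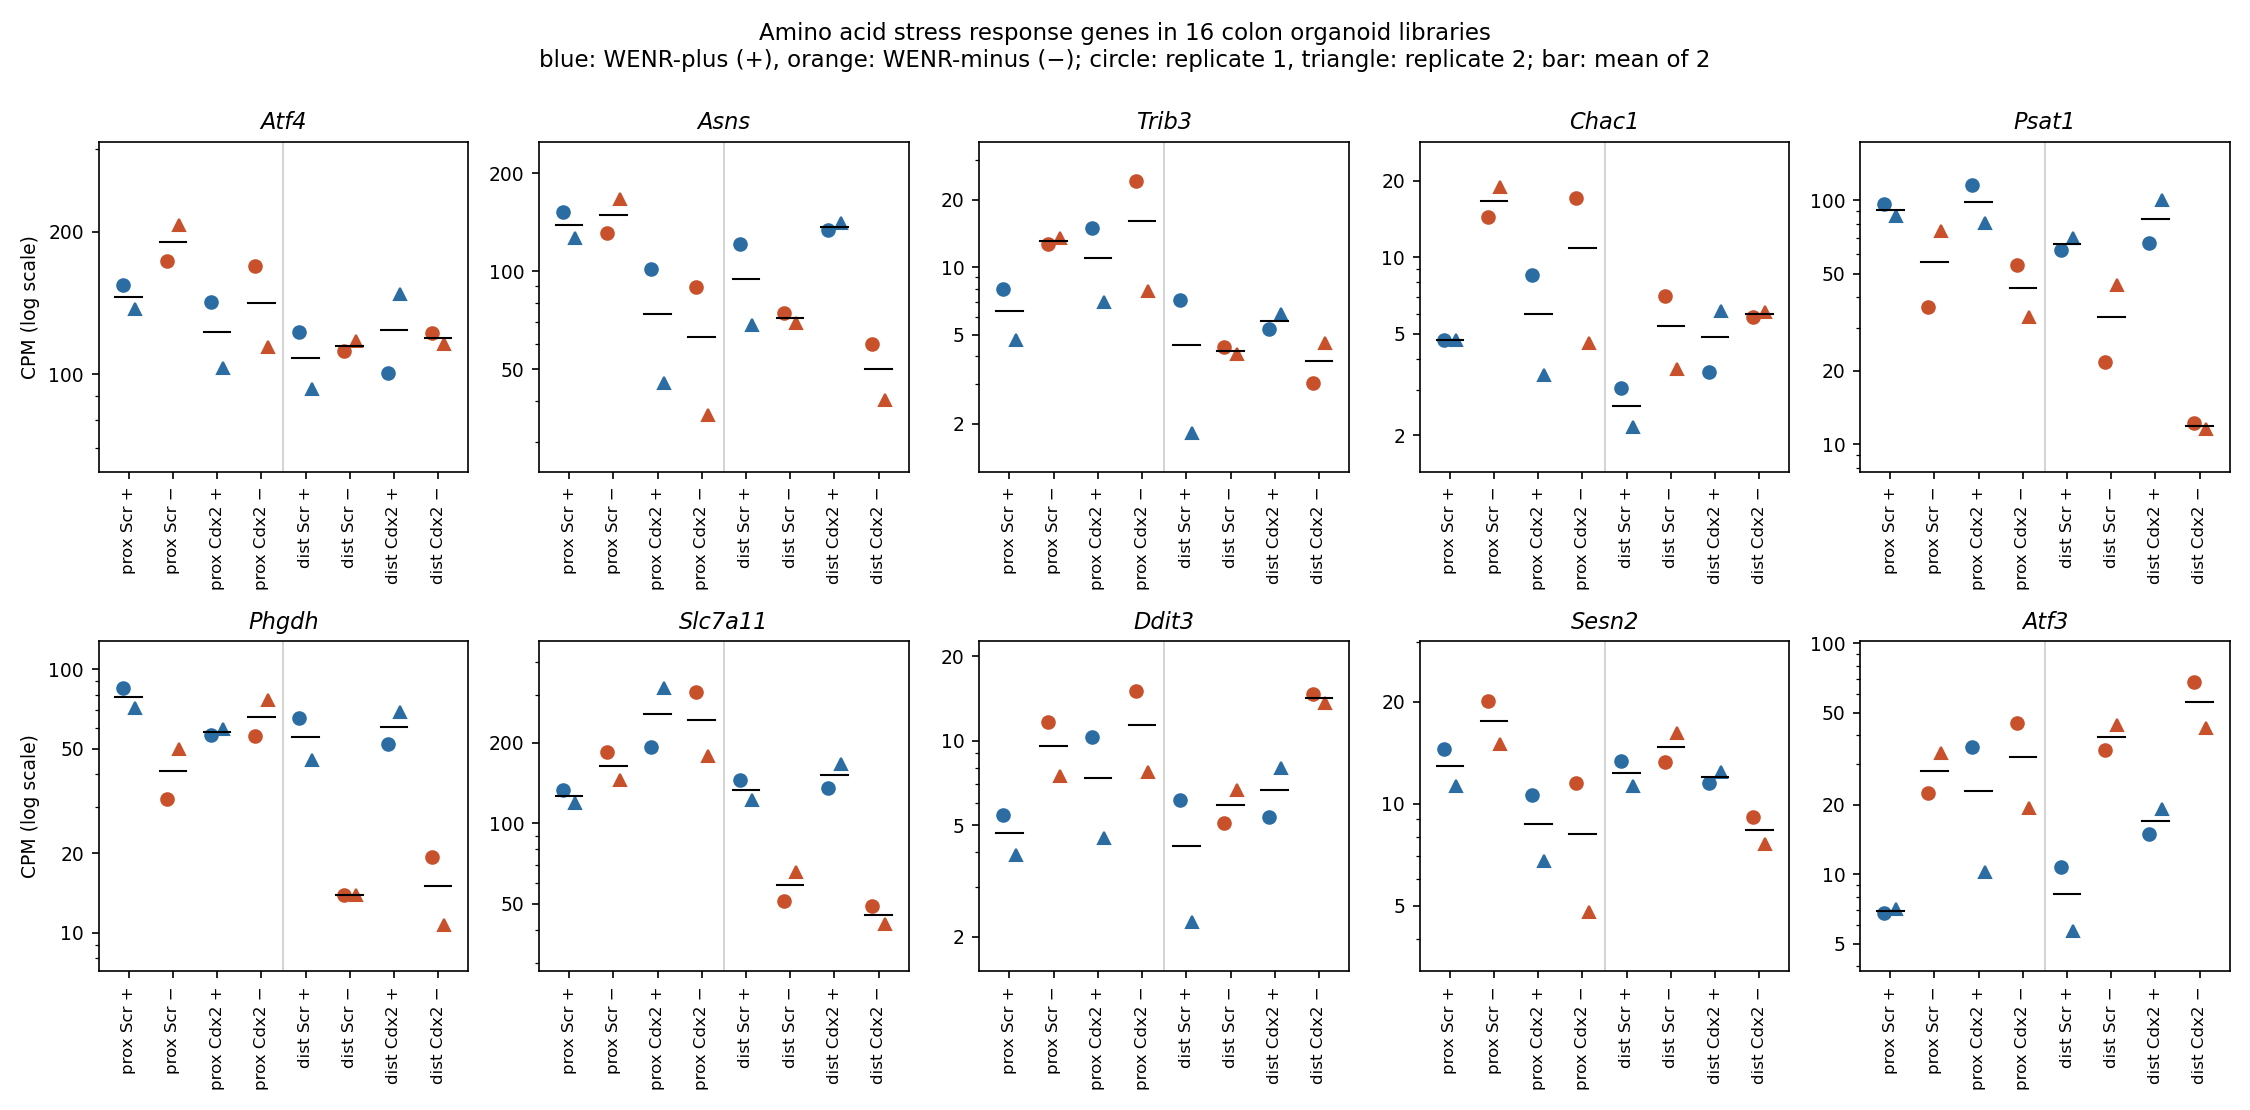
CPM on a log axis for each gene (one panel a gene) in the 16 libraries, with circles for replicate 1, triangles for replicate 2, blue for WENR-plus, orange for WENR-minus and a bar at the mean of 2. The 4 distal WENR-minus libraries sit lowest for Phgdh (10.7 to 19.5 CPM) and Slc7a11 (42.1 to 65.9 CPM), while Atf4 stays between 93.2 and 207 CPM.

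Withdrawal of the WENR factors was compared within each region and guide to ask which genes move when the organoids leave the growth condition. A gene was called when its adjusted p was under 0.05 (edgeR's quasi-likelihood test, Benjamini-Hochberg over 15289 genes) and its log2 fold change was above 1 or below −1. Fold changes are given as log2 values ± the standard error of the fit, and a range after a call is that of its adjusted p over all alternatives tried. In distal organoids the serine synthesis gene Phgdh and the transporter gene Slc7a11 fell and Atf3 rose with either guide, and in distal Cdx2-sgRNA organoids Psat1 and Asns fell as well. In proximal organoids only 2 calls were made, both upward and both in Scramble-sgRNA organoids (Chac1 and Atf3). Both ended when single libraries were left out, and without WENR-minus replicate 2 neither passed and Phgdh was called lower instead (−1.21, adjusted p = 0.0318).

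In distal Cdx2-sgRNA organoids 4 of the 10 genes were downregulated and 1 upregulated, where 18.1% and 14.9% of all genes were. In distal Scramble-sgRNA organoids 2 were downregulated and 1 upregulated (all genes 14.2% and 12.2%). Proximal Scramble-sgRNA organoids gave 2 upregulated and 0 downregulated (all genes 8.73% and 8.24%). Proximal Cdx2-sgRNA organoids gave 0 in either direction (all genes 3.42% higher and 2.98% lower), with 1 gene at an unadjusted p under 0.05 in edgeR and 1 called by DESeq2 (Psat1). The downregulated share of the distal Cdx2-sgRNA comparison, 4 of 10, stands beside the widest background of the 4 comparisons. The median log2 fold change of the 10 genes was −0.55 in distal Cdx2-sgRNA (all genes −0.097), −0.0017 in distal Scramble-sgRNA (all genes −0.11), 0.41 in proximal Scramble-sgRNA (all genes −0.055) and 0.20 in proximal Cdx2-sgRNA organoids (all genes −0.029). The 10 genes did not move as a block: within each distal comparison Phgdh and Slc7a11 fell while Atf3 rose.

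**Figure D2:**
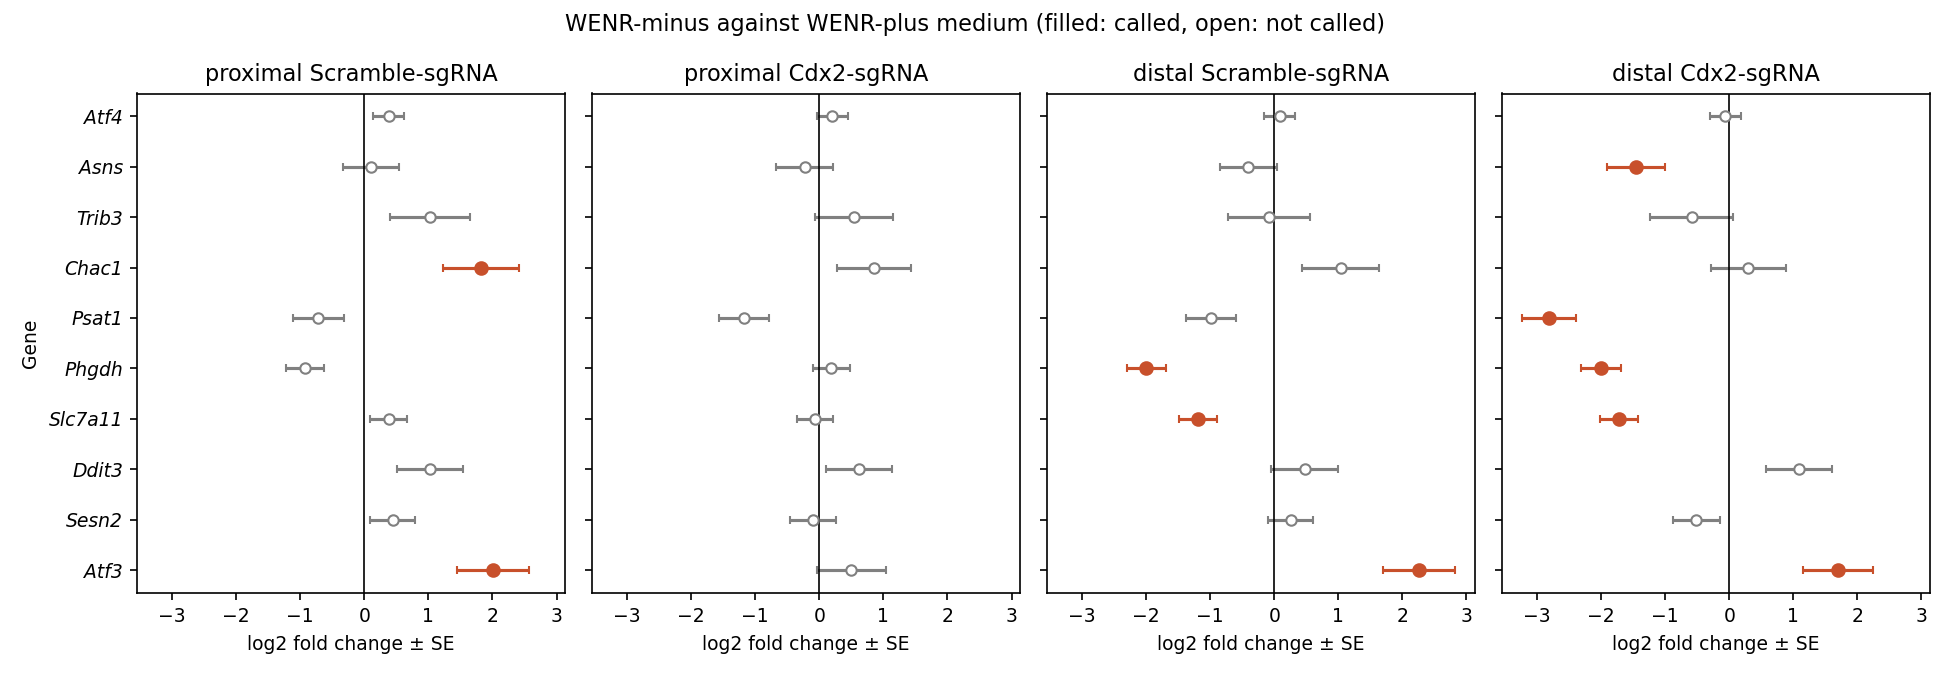
log2 fold change (x axis, ± SE) of each gene (y axis) in WENR-minus against WENR-plus medium, one panel for each region and guide, filled where called and open where not. Phgdh lies at −1.99 and −2.01 in the distal panels and at −0.93 and 0.19 in the proximal ones, and Atf3 lies to the right of 0 in all 4.

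The makeup of the organoids moved with the medium. The summed level of 5 proliferation markers (Mki67, Top2a, Pcna, Mcm2 and Ccnb1) was 1198 to 1628 CPM in WENR-plus and 142 to 193 CPM in WENR-minus distal Cdx2-sgRNA libraries, and 1479.5 to 1751 and 286 to 435 CPM in distal Scramble-sgRNA libraries. It was 1684 to 1810.4 and 297 to 533 CPM in proximal Scramble-sgRNA and 693 to 802 and 697 to 844 CPM in proximal Cdx2-sgRNA libraries. Colonocyte markers (Car1, Krt20, Fabp2, Aqp8 and Slc26a3) summed to 219 to 326 (WENR-plus) and 6793 to 9587 (WENR-minus) CPM in proximal Scramble-sgRNA, 285 to 448 (WENR-plus) and 5452 to 8178 (WENR-minus) in distal Scramble-sgRNA, 457 to 676 (WENR-plus) and 9437 to 9456 (WENR-minus) in distal Cdx2-sgRNA and 147 to 278 (WENR-plus) and 559 to 1791 (WENR-minus) in proximal Cdx2-sgRNA libraries. The summed level of 4 goblet cell markers was higher in WENR-minus than in WENR-plus libraries of every pair, at 593 to 863 (WENR-plus) and 4562 to 5949.5 (WENR-minus) CPM in proximal Scramble-sgRNA and 32.5 (WENR-plus) and 48.03 to 53.8 (WENR-minus) CPM in proximal Cdx2-sgRNA libraries. Of 3 stem cell markers, 2 were downregulated by withdrawal in each comparison but distal Cdx2-sgRNA, where 3 were, with list medians from −5.86 to −3.51. The epithelial list had 4 (proximal Scramble-sgRNA), 3 (proximal Cdx2-sgRNA), 5 (distal Scramble-sgRNA) and 5 (distal Cdx2-sgRNA) of 6 genes upregulated, with a summed level in proximal Cdx2-sgRNA libraries of 4575 to 5814 CPM in WENR-plus and 13517 to 13813 CPM in WENR-minus medium. Of 3 enteroendocrine markers 2 were upregulated in each comparison but proximal Cdx2-sgRNA, where 0 were. The part of these markers in the withdrawal results was not tested, and in bulk libraries fewer cells of a type and less RNA per cell cannot be told apart.

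Atf4 itself (ENSMUSG00000042406.8, chr15:80255184-80257541, plus strand of GRCm38, as are all positions here) was called in none of the 12 comparisons of groups. In proximal organoids it read 154 and 137 CPM (replicates 1 and 2, in that order throughout) with Scramble-sgRNA and 142 and 103 CPM with Cdx2-sgRNA in WENR-plus medium, and 174 and 207 CPM (Scramble-sgRNA) and 169.5 and 114 CPM (Cdx2-sgRNA) in WENR-minus medium. The distal values were 123 and 93.2 (Scramble-sgRNA) and 101 and 148 CPM (Cdx2-sgRNA) in WENR-plus and 112 and 117 CPM (Scramble-sgRNA) and 122 and 116 CPM (Cdx2-sgRNA) in WENR-minus medium. Proximal Scramble-sgRNA organoids in WENR-minus held the highest pair, above every other library, and the other 14 libraries lay between 93.2 and 170 CPM. Against WENR-plus that group differed by a log2 fold change of 0.38 ± 0.24, adjusted p = 0.26, and against distal Scramble-sgRNA organoids in the same medium by 0.73 ± 0.24, adjusted p = 0.0811, so neither difference passed. The protein-coding transcript Atf4-201 took 93.5% of the Atf4 reads.

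Phgdh (ENSMUSG00000053398.11, chr3:98313170-98339990, minus strand) encodes the enzyme that takes the glycolytic intermediate phosphoglycerate into serine synthesis, the entry step of the pathway. Its proximal values in WENR-plus medium were 85.3 and 71.1 CPM with Scramble-sgRNA and 56.5 and 59.5 CPM with Cdx2-sgRNA, and in WENR-minus medium 32.3 and 49.8 CPM (Scramble-sgRNA) and 56.05 and 76.2 CPM (Cdx2-sgRNA). Distal libraries read 65.3 and 45.3 CPM (Scramble-sgRNA) and 52.2 and 68.98 CPM (Cdx2-sgRNA) in WENR-plus and 13.9 and 13.9 CPM (Scramble-sgRNA) and 19.5 and 10.7 CPM (Cdx2-sgRNA) in WENR-minus medium. The 4 distal WENR-minus libraries were the lowest of all 16, with none above 19.5 CPM and no other library below 32.3 CPM. Withdrawal lowered Phgdh in distal Scramble-sgRNA (−1.99 ± 0.31, adjusted p = 0.000518) and distal Cdx2-sgRNA organoids (−2.01 ± 0.31, adjusted p = 0.000308), and both calls held under every alternative tried, with adjusted p from 6.16e-16 to 0.00739 and from 4.73e-16 to 0.00607. In proximal Scramble-sgRNA organoids the difference of −0.93 ± 0.30, adjusted p = 0.0361 fell short of the fold threshold, and it passed when counts were scaled by transcript length (−1.01, adjusted p = 0.0381) and when genes under 10 counts in any library were left out (−1.01, adjusted p = 0.0157; range over the alternatives 0.000533 to 0.254). In proximal Cdx2-sgRNA organoids both media overlapped (0.19 ± 0.29, adjusted p = 0.739).

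Psat1 (ENSMUSG00000024640.9, chr19:15904678-15947337, minus strand) encodes the aminotransferase of the step that follows PHGDH. In proximal WENR-plus libraries it stood at 96.2 and 86.3 CPM with Scramble-sgRNA and 116 and 80.6 CPM with Cdx2-sgRNA, and in proximal WENR-minus libraries at 36.4 and 74.7 CPM (Scramble-sgRNA) and 53.97 and 33.1 CPM (Cdx2-sgRNA). Distal organoids held 62.2 and 69.96 CPM (Scramble-sgRNA) and 66.8 and 99.9 CPM (Cdx2-sgRNA) in WENR-plus and 21.8 and 44.9 CPM (Scramble-sgRNA) and 12.2 and 11.5 CPM (Cdx2-sgRNA) in WENR-minus medium. WENR-minus lay below WENR-plus without overlap in all 4 region and guide pairs, and the distal Cdx2-sgRNA WENR-minus pair was the lowest of the 8 groups. The difference passed in distal Cdx2-sgRNA organoids (−2.81 ± 0.43, adjusted p = 0.000257), where it held under every alternative (adjusted p 5.36e-30 to 0.00432). It did not pass in distal Scramble-sgRNA (−0.99 ± 0.40, adjusted p = 0.0672), proximal Scramble-sgRNA (−0.72 ± 0.39, adjusted p = 0.195) or proximal Cdx2-sgRNA organoids (−1.17 ± 0.40, adjusted p = 0.0732). When each culture entered the model as a block, an alternative chosen once the data had been seen, it passed in distal Scramble-sgRNA (−1.06, adjusted p = 0.0116; range over the alternatives 0.000109 to 0.387) and proximal Cdx2-sgRNA organoids (−1.19, adjusted p = 0.0133; range 3.53e-06 to 0.335).

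Asns (ENSMUSG00000029752.12, chr6:7675169-7693254, minus strand) encodes asparagine synthetase, which makes asparagine from aspartate and glutamine and is a classic target of ATF4. It read 152 and 126 CPM in proximal Scramble-sgRNA and 102 and 45.4 CPM in proximal Cdx2-sgRNA libraries in WENR-plus medium, and 131 and 167 CPM (Scramble-sgRNA) and 89.6 and 36.3 CPM (Cdx2-sgRNA) in WENR-minus medium. In distal libraries it read 122 and 68.4 CPM (Scramble-sgRNA) and 134 and 140.4 CPM (Cdx2-sgRNA) in WENR-plus and 74.5 and 69.2 CPM (Scramble-sgRNA) and 59.9 and 40.2 CPM (Cdx2-sgRNA) in WENR-minus medium. The proximal Cdx2-sgRNA replicates stood apart by over 2-fold in both media, replicate 1 being the higher. Withdrawal lowered Asns in distal Cdx2-sgRNA organoids (−1.45 ± 0.45, adjusted p = 0.0201), and in distal Scramble-sgRNA organoids the media overlapped (−0.40 ± 0.44, adjusted p = 0.501). The call ended without WENR-plus replicate 1, WENR-plus replicate 2 or WENR-minus replicate 2 (−1.42, −1.38 and −1.14, adjusted p = 0.0563, 0.066 and 0.147), and the adjusted p ranged from 1.49e-09 to 0.147 over the alternatives. Between the guides in proximal organoids Asns was lower with Cdx2-sgRNA without overlap in either medium, with log2 fold changes of −1.25 ± 0.45, adjusted p = 0.054 in WENR-minus and −0.92 ± 0.44, adjusted p = 0.155 in WENR-plus, short of the threshold. The WENR-minus difference passed with the replicate number as a block (−1.37, adjusted p = 0.0149), in DESeq2 (−1.20, adjusted p = 0.0221), with no filter (−1.23, adjusted p = 1.89e-07), with a minimum of 10 counts (−1.20, adjusted p = 0.0476) and without Cdx2-sgRNA replicate 1 (−2.01, adjusted p = 0.012), with a range of 1.89e-07 to 0.276 over the alternatives. The WENR-plus difference passed without Cdx2-sgRNA replicate 1 (−1.62, adjusted p = 0.0492) and was −0.44, adjusted p = 0.579 without replicate 2, with a range of 0.000713 to 0.579.

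Slc7a11 (ENSMUSG00000027737.10, chr3:49892526-50443614, minus strand) encodes the light chain of the exchanger that imports cystine for glutathione synthesis and exports glutamate. Proximal libraries held 133 and 119 CPM with Scramble-sgRNA and 192 and 318 CPM with Cdx2-sgRNA in WENR-plus medium, and 184 and 145 CPM (Scramble-sgRNA) and 309 and 178 CPM (Cdx2-sgRNA) in WENR-minus medium. In distal libraries the values were 145 and 122 CPM (Scramble-sgRNA) and 135 and 167 CPM (Cdx2-sgRNA) in WENR-plus and 51.2 and 65.9 CPM (Scramble-sgRNA) and 49.2 and 42.1 CPM (Cdx2-sgRNA) in WENR-minus medium. As for Phgdh, the 4 distal WENR-minus libraries were the lowest of 16, at 65.9 CPM or less where no other library was below 119 CPM. Withdrawal lowered Slc7a11 in distal Scramble-sgRNA (−1.19 ± 0.29, adjusted p = 0.00694) and distal Cdx2-sgRNA organoids (−1.73 ± 0.30, adjusted p = 0.00058), the latter under every alternative (adjusted p 2.82e-13 to 0.0102). The distal Scramble-sgRNA call ended without WENR-minus replicate 1 (−1.02, adjusted p = 0.0695), and the adjusted p ranged from 8.88e-07 to 0.0695 over the alternatives. In proximal organoids the log2 fold change was 0.38 ± 0.29, adjusted p = 0.353 with Scramble-sgRNA and −0.069 ± 0.28, adjusted p = 0.925 with Cdx2-sgRNA, where the sign turned without WENR-plus or WENR-minus replicate 2 (closing section).

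Chac1 (ENSMUSG00000027313.3, chr2:119351229-119354381, plus strand) encodes an enzyme that cleaves glutathione and is among the genes ATF4 induces most strongly under stress. Its levels were low, at 4.73 and 4.73 CPM (Scramble-sgRNA) and 8.52 and 3.44 CPM (Cdx2-sgRNA) in proximal WENR-plus and 14.4 and 18.97 CPM (Scramble-sgRNA) and 17.1 and 4.60 CPM (Cdx2-sgRNA) in proximal WENR-minus libraries. The distal levels were 3.05 and 2.15 CPM (Scramble-sgRNA) and 3.55 and 6.14 CPM (Cdx2-sgRNA) in WENR-plus and 7.08 and 3.66 CPM (Scramble-sgRNA) and 5.84 and 6.11 CPM (Cdx2-sgRNA) in WENR-minus medium. Proximal Scramble-sgRNA organoids in WENR-minus held the highest group mean, and the proximal Cdx2-sgRNA replicates differed over 2-fold in either medium. Withdrawal raised Chac1 in proximal Scramble-sgRNA organoids (1.82 ± 0.59, adjusted p = 0.0381). The call ended without WENR-plus replicate 1, WENR-minus replicate 1, WENR-plus replicate 2 or WENR-minus replicate 2 (1.86, 2.02, 1.85 and 1.67, adjusted p = 0.134, 0.0766, 0.139 and 0.112), and the adjusted p ranged from 1.62e-05 to 0.139 over the alternatives. The other log2 fold changes were 0.85 ± 0.58, adjusted p = 0.373 (proximal Cdx2-sgRNA), 1.04 ± 0.60, adjusted p = 0.193 (distal Scramble-sgRNA) and 0.30 ± 0.59, adjusted p = 0.706 (distal Cdx2-sgRNA), and with a block for each culture the distal Scramble-sgRNA difference passed (1.01, adjusted p = 0.0141; range over the alternatives 0.0141 to 0.672).

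Atf3 (ENSMUSG00000026628.13, chr1:191170296-191218039, minus strand) encodes a transcription factor that ATF4 induces and that many other stimuli induce too. In proximal organoids it read 6.79 and 7.10 CPM with Scramble-sgRNA and 35.4 and 10.2 CPM with Cdx2-sgRNA in WENR-plus medium, and 22.4 and 33.6 CPM (Scramble-sgRNA) and 45.3 and 19.3 CPM (Cdx2-sgRNA) in WENR-minus medium. Distal organoids showed 10.7 and 5.70 CPM (Scramble-sgRNA) and 14.9 and 19.2 CPM (Cdx2-sgRNA) in WENR-plus and 34.5 and 44.2 CPM (Scramble-sgRNA) and 68.03 and 42.8 CPM (Cdx2-sgRNA) in WENR-minus medium. WENR-minus lay above WENR-plus without overlap in 3 of the 4 pairs, the exception being proximal Cdx2-sgRNA, whose replicates differed over 2-fold in each medium. Withdrawal raised Atf3 in proximal Scramble-sgRNA (2.01 ± 0.57, adjusted p = 0.0212), distal Scramble-sgRNA (2.26 ± 0.57, adjusted p = 0.0081) and distal Cdx2-sgRNA organoids (1.70 ± 0.55, adjusted p = 0.0248), and the proximal Cdx2-sgRNA difference was 0.50 ± 0.54, adjusted p = 0.602. Leaving out a single library could end each call. In proximal Scramble-sgRNA organoids it ended without WENR-plus replicate 1, WENR-plus replicate 2 or WENR-minus replicate 2 (2.02, 2.07 and 1.75, adjusted p = 0.0949, 0.0911 and 0.078), in distal Scramble-sgRNA organoids without WENR-plus replicate 2 (1.97, adjusted p = 0.0634) and in distal Cdx2-sgRNA organoids without WENR-plus replicate 1, WENR-minus replicate 1 or WENR-plus replicate 2 (1.60, 1.33 and 1.93, adjusted p = 0.106, 0.136 and 0.0641). Over the alternatives the adjusted p ranged from 5.13e-14 to 0.0949, 1.27e-17 to 0.0634 and 2.59e-11 to 0.136.

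Atf3 is also an immediate early gene, a class that responds within minutes to growth factors and handling. Of 7 other immediate early genes on a list kept for comparison, 3 were upregulated and 0 downregulated by withdrawal in proximal Scramble-sgRNA, 3 and 0 in proximal Cdx2-sgRNA, 4 and 0 in distal Scramble-sgRNA and 4 and 0 in distal Cdx2-sgRNA organoids, where 8.73%, 3.42%, 12.2% and 14.9% of all genes were upregulated. Their part in the rise of Atf3 was not tested.

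Trib3 (ENSMUSG00000032715.9, chr2:152337422-152344032, minus strand) encodes a pseudokinase that binds ATF4 and restrains it. The proximal values were 8.03 and 4.73 CPM with Scramble-sgRNA and 14.96 and 6.98 CPM with Cdx2-sgRNA in WENR-plus and 12.7 and 13.4 CPM (Scramble-sgRNA) and 24.2 and 7.83 CPM (Cdx2-sgRNA) in WENR-minus medium. The distal values were 7.16 and 1.83 CPM (Scramble-sgRNA) and 5.27 and 6.19 CPM (Cdx2-sgRNA) in WENR-plus and 4.39 and 4.09 CPM (Scramble-sgRNA) and 3.05 and 4.60 CPM (Cdx2-sgRNA) in WENR-minus medium. No withdrawal comparison passed for Trib3. In proximal Scramble-sgRNA organoids WENR-minus was above WENR-plus without overlap (1.03 ± 0.62, adjusted p = 0.241), and with a block for each culture the difference passed (1.07, adjusted p = 0.0403; range over the alternatives 0.0195 to 0.566).

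Ddit3 (ENSMUSG00000025408.15, chr10:127290774-127296288, plus strand) encodes CHOP, a C/EBP family factor of the same stress response that is tied to cell death when stress lasts. It read 5.45 and 3.91 CPM (Scramble-sgRNA) and 10.3 and 4.49 CPM (Cdx2-sgRNA) in proximal WENR-plus libraries and 11.7 and 7.45 CPM (Scramble-sgRNA) and 15.1 and 7.72 CPM (Cdx2-sgRNA) in proximal WENR-minus libraries. Distal libraries held 6.16 and 2.26 CPM (Scramble-sgRNA) and 5.33 and 7.99 CPM (Cdx2-sgRNA) in WENR-plus and 5.08 and 6.67 CPM (Scramble-sgRNA) and 14.6 and 13.6 CPM (Cdx2-sgRNA) in WENR-minus medium. The WENR-minus mean was the higher in every pair, and the media did not overlap in proximal Scramble-sgRNA and distal Cdx2-sgRNA organoids. The log2 fold changes were 1.02 ± 0.52, adjusted p = 0.164 (proximal Scramble-sgRNA), 0.62 ± 0.51, adjusted p = 0.472 (proximal Cdx2-sgRNA), 0.48 ± 0.52, adjusted p = 0.501 (distal Scramble-sgRNA) and 1.08 ± 0.52, adjusted p = 0.107 (distal Cdx2-sgRNA), and none passed. With a block for each culture the proximal Scramble-sgRNA (1.02, adjusted p = 0.045; range 0.0223 to 0.502) and distal Cdx2-sgRNA differences passed (1.11, adjusted p = 0.0225; range 0.0076 to 0.316). A retained-intron transcript, Ddit3-202, held 17.0% of the Ddit3 reads over all libraries and 6.56 to 44.9% in single libraries, so the gene's sum is not all coding RNA.

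Sesn2 (ENSMUSG00000028893.8, chr4:132492032-132510501, minus strand) encodes sestrin 2, a leucine sensor that restrains mTORC1 and is also a target of p53. The proximal readings were 14.5 and 11.3 CPM with Scramble-sgRNA and 10.6 and 6.77 CPM with Cdx2-sgRNA in WENR-plus medium, and 20.1 and 14.96 CPM (Scramble-sgRNA) and 11.5 and 4.81 CPM (Cdx2-sgRNA) in WENR-minus medium. The distal readings were 13.4 and 11.3 CPM (Scramble-sgRNA) and 11.5 and 12.4 CPM (Cdx2-sgRNA) in WENR-plus and 13.3 and 16.1 CPM (Scramble-sgRNA) and 9.14 and 7.61 CPM (Cdx2-sgRNA) in WENR-minus medium. Sesn2 was called in none of the 4 withdrawal comparisons, and in WENR-minus medium the Cdx2-sgRNA libraries lay below the Scramble-sgRNA libraries without overlap in both regions.

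Cdx2-sgRNA organoids were compared with Scramble-sgRNA organoids of the same region and medium to ask what loss of Cdx2 does to these genes. Few of them passed. In proximal organoids Sesn2 fell in WENR-minus medium and Slc7a11 and Atf3 rose in WENR-plus medium, and in distal organoids Psat1 fell in WENR-minus medium. Counted over the 10 genes, proximal WENR-minus gave 0 upregulated and 1 downregulated (all genes 9.04% and 12.1%), and proximal WENR-plus gave 2 and 0 (all genes 6.93% and 8.94%). Distal WENR-minus gave 0 and 1 (all genes 2.24% and 3%), and distal WENR-plus gave 0 and 0 (all genes 0.137% and 0.124%), with 0 at an unadjusted p under 0.05 in edgeR and 0 called by DESeq2. The medians of the 10 genes were −0.076 and 0.22 in proximal and −0.046 and 0.34 in distal organoids (WENR-minus, then WENR-plus), against −0.00033, −0.05, 0 and −0.012 over all genes.

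The drop of Sesn2 in proximal WENR-minus organoids was −1.11 ± 0.36, adjusted p = 0.0371. It was lost without Scramble-sgRNA replicate 1 or Cdx2-sgRNA replicate 2 (−0.86 and −0.62, adjusted p = 0.186 and 0.211) and when only the libraries of both groups were fitted (−1.07, adjusted p = 0.153), with a range of 0.00186 to 0.211. In WENR-plus medium the same difference was −0.57 ± 0.36, adjusted p = 0.271, and in distal WENR-minus organoids −0.81 ± 0.36, adjusted p = 0.183. The rise of Slc7a11 in proximal WENR-plus organoids was 1.02 ± 0.29, adjusted p = 0.0254. It was lost without Scramble-sgRNA replicate 1, Scramble-sgRNA replicate 2 or Cdx2-sgRNA replicate 2 (1.14, 0.97 and 0.61, adjusted p = 0.0815, 0.127 and 0.209) and when only the libraries of both groups were fitted (1.08, adjusted p = 0.0594), with a range of 5.66e-06 to 0.209. That of Atf3 was 1.71 ± 0.56, adjusted p = 0.046, and it was lost without Scramble-sgRNA replicate 1, Cdx2-sgRNA replicate 1 or Scramble-sgRNA replicate 2 (1.71, 0.55 and 1.76, adjusted p = 0.167, 0.5 and 0.153) and when only the libraries of both groups were fitted (1.77, adjusted p = 0.105), with a range of 7.29e-11 to 0.5. Psat1 fell in distal WENR-minus organoids (−1.49 ± 0.41, adjusted p = 0.0449), a call lost without Cdx2-sgRNA replicate 1, Scramble-sgRNA replicate 2 or Cdx2-sgRNA replicate 2 (−1.53, −0.88 and −1.46, adjusted p = 0.159, 0.337 and 0.186) and when only the libraries of both groups were fitted (−1.51, adjusted p = 0.0649), with a range of 9.5e-09 to 0.337. None of the 4 calls between the guides thus held when single libraries were left out.

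Markers of cell types moved with the guide in proximal organoids. Of the 5 immune markers only Csf1r, a receptor gene of macrophages, had enough reads to be tested, and it was higher with Cdx2-sgRNA in proximal WENR-minus (6.69 ± 1.17, adjusted p = 0.00149) and WENR-plus organoids (7.35 ± 1.35, adjusted p = 0.00285). Proliferation markers summed to 1684 to 1810.4 CPM with Scramble-sgRNA and 693 to 802 CPM with Cdx2-sgRNA in WENR-plus medium, with 2 of 5 downregulated, and 1 was upregulated in WENR-minus medium. The goblet cell list summed to 4562 to 5949.5 CPM with Scramble-sgRNA and 48.03 to 53.8 CPM with Cdx2-sgRNA in WENR-minus medium, with 4 of 4 genes downregulated, and to 593 to 863 and 32.5 CPM in WENR-plus medium, with 3 of 4. The enteroendocrine list summed to 114 to 169 CPM with Scramble-sgRNA and 0.894 to 1.93 CPM with Cdx2-sgRNA in WENR-minus and to 60.02 to 92.1 and 0.803 to 1.08 CPM in WENR-plus medium, with 3 of 3 genes downregulated in each. Colonocyte markers had 4 of 5 downregulated in WENR-minus and 2 downregulated and 1 upregulated in WENR-plus medium. Of 6 epithelial markers 2 were downregulated in WENR-minus medium (list median −0.51). In distal WENR-minus organoids 1 of 5 colonocyte markers was downregulated. The part of these markers in the results between the guides was not tested.

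**Figure D3:**
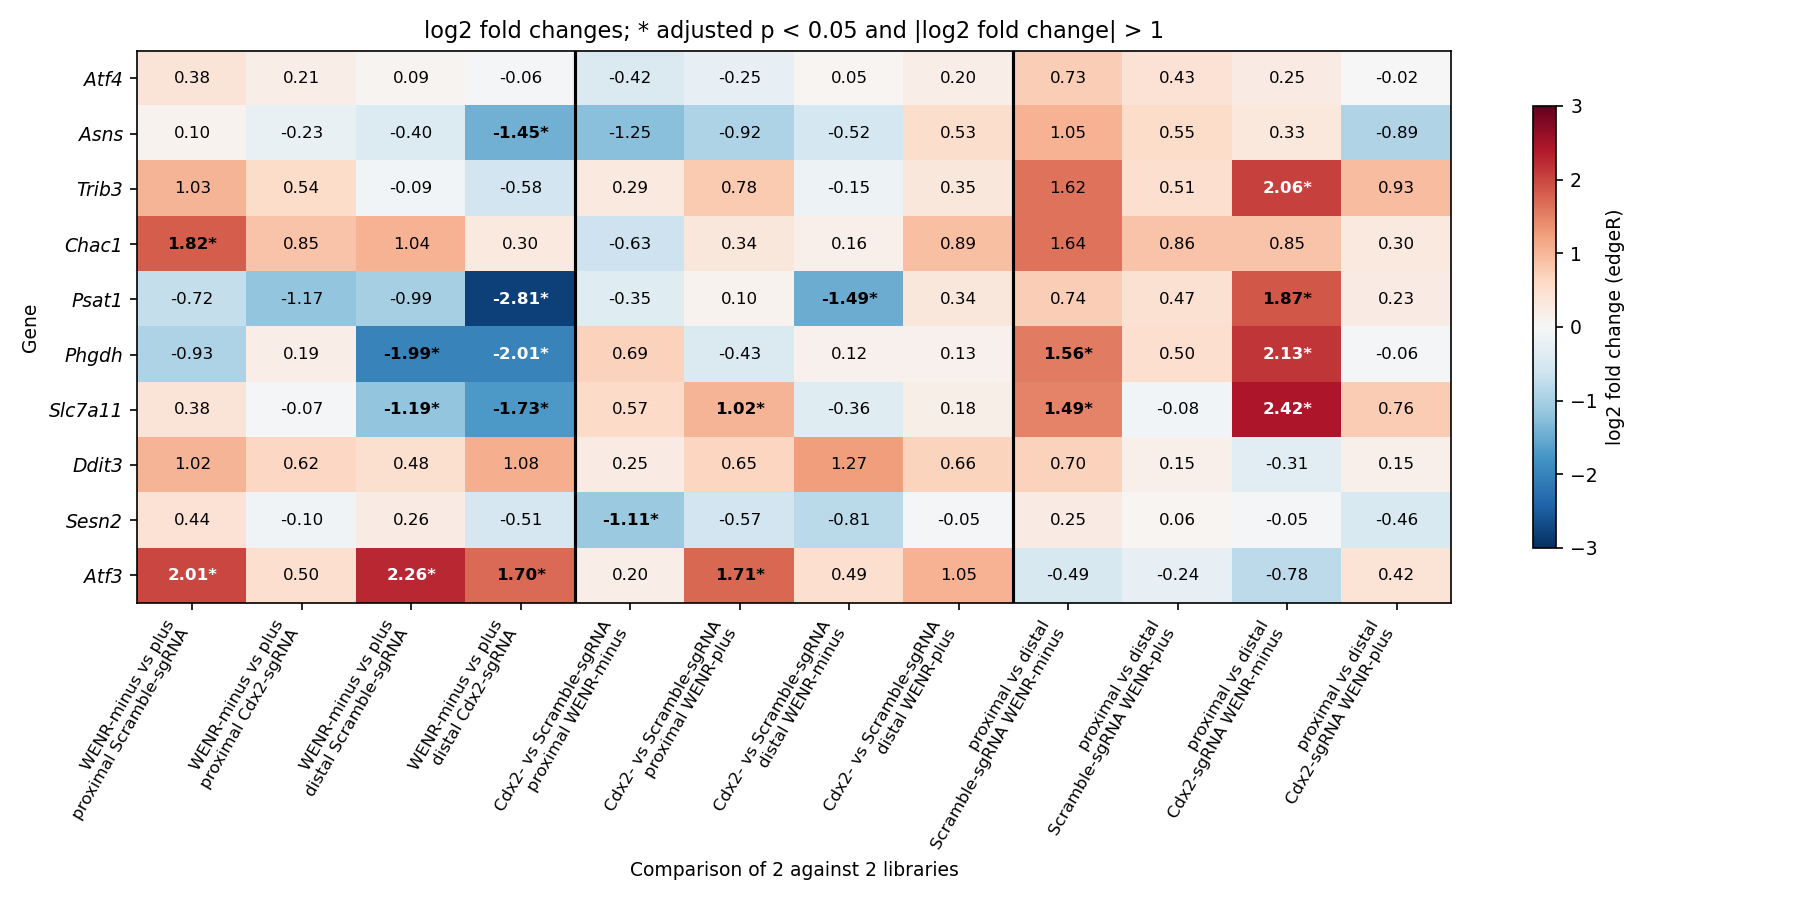
log2 fold changes of the 10 genes (rows) in the 12 comparisons of 2 against 2 libraries (columns), red for higher and blue for lower, with an asterisk where called. The called values include Psat1 at −2.81 on withdrawal in distal Cdx2-sgRNA organoids and Slc7a11 at 2.42 for proximal against distal colon in Cdx2-sgRNA WENR-minus organoids.

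Proximal and distal organoids were compared within each guide and medium. In WENR-minus medium Phgdh and Slc7a11 were higher in proximal organoids with either guide, and Psat1 and Trib3 were higher in proximal Cdx2-sgRNA organoids. In WENR-plus medium no gene of the 10 was called, and Slc7a11 was at 0.76 ± 0.29, adjusted p = 0.067 with Cdx2-sgRNA. Without proximal Cdx2-sgRNA WENR-plus replicate 1, Slc7a11 was called higher and Asns lower there. These comparisons share their libraries with the withdrawal comparisons. Scramble-sgRNA organoids gave 2 higher and 0 lower in WENR-minus (all genes 2.88% and 3.2%) and 0 and 0 in WENR-plus medium (all genes 0.68% and 1.07%). Cdx2-sgRNA organoids gave 4 and 0 in WENR-minus (all genes 18.1% and 16.5%) and 0 and 0 in WENR-plus medium (all genes 7.4% and 9.57%). For the WENR-plus comparisons 0 (Scramble-sgRNA) and 1 (Cdx2-sgRNA) genes were at an unadjusted p under 0.05 in edgeR, and DESeq2 called 0 in each. The median log2 fold change of the 10 genes, proximal minus distal, was 0.90 in Scramble-sgRNA WENR-minus (all genes 0.075) and 0.59 in Cdx2-sgRNA WENR-minus organoids (all genes 0.13). In WENR-plus medium it was 0.45 (Scramble-sgRNA, all genes 0.0049) and 0.19 (Cdx2-sgRNA, all genes −0.0058), with 8 and 6 of the 10 above 0.

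With Cdx2-sgRNA, cell type markers moved with region. In WENR-minus medium 4 of 5 proliferation markers were higher in proximal organoids (list median 2.34), and 4 of 4 goblet cell, 3 of 3 enteroendocrine and 3 of 5 colonocyte markers were lower, as were 2 of 6 epithelial markers and the endothelial marker Pecam1 (−4.18 ± 1.12, adjusted p = 0.011). The Pecam1 call rests on very few reads, as the endothelial list summed to 0 to 0.298 CPM in these proximal and 0.438 to 0.474 CPM in these distal libraries. The immune marker Csf1r (3.74 ± 0.96, adjusted p = 0.00771) and 1 of 3 stem cell markers were higher. In Scramble-sgRNA organoids in that medium 2 colonocyte and 1 enteroendocrine markers were lower and 0 goblet cell or proliferation markers were called. The part of these markers in the regional results was not tested.

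With Cdx2-sgRNA in WENR-minus medium the regional differences were 2.42 ± 0.30, adjusted p = 8.76e-05 for Slc7a11, 2.13 ± 0.31, adjusted p = 0.000252 for Phgdh and 1.87 ± 0.42, adjusted p = 0.00334 for Psat1. These 3 held under every alternative, with adjusted p from 1.35e-25 to 0.00524, 8.35e-19 to 0.0106 and 1.01e-14 to 0.0271. Trib3 was higher by 2.06 ± 0.65, adjusted p = 0.0222, a call lost without proximal replicate 1, distal replicate 1 or distal replicate 2 (1.04, 1.79 and 2.35, adjusted p = 0.227, 0.131 and 0.0621) and with length-scaled counts (1.62, adjusted p = 0.0725), with a range of 4.67e-07 to 0.227. With Scramble-sgRNA in the same medium Phgdh was higher in proximal organoids by 1.56 ± 0.31, adjusted p = 0.0102 and Slc7a11 by 1.49 ± 0.29, adjusted p = 0.0101. The Phgdh call was lost without distal replicate 1, proximal replicate 2 or distal replicate 2 (1.56, 1.22 and 1.57, adjusted p = 0.0667, 0.0876 and 0.0745), with a range of 7.88e-10 to 0.0876, and the Slc7a11 call without proximal replicate 1 or distal replicate 1 (1.26 and 1.32, adjusted p = 0.0535 and 0.0859), with a range of 6.26e-10 to 0.0859. Trib3 (1.62 ± 0.64, adjusted p = 0.136) and Psat1 (0.74 ± 0.39, adjusted p = 0.264) leaned the same way in Scramble-sgRNA organoids without passing. So did Chac1 (1.64 ± 0.59, adjusted p = 0.105) and Asns (1.05 ± 0.44, adjusted p = 0.162), and 9 of the 10 genes were above 0, with Atf3 at −0.49 ± 0.54. When only the libraries of both groups were fitted Trib3 passed (1.63, adjusted p = 0.022; range 0.000304 to 0.438). In that fit 4 of the 10 genes were called higher, as were 351 of 12738 genes.

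Whether withdrawal acted differently in proximal and distal organoids was tested as a difference between the comparisons. In Cdx2-sgRNA organoids 2 of the 10 genes passed, both with the drop on the distal side, where 17.6% of all genes passed in either direction. Phgdh differed by 2.20 ± 0.43, adjusted p = 0.00459, which held under every alternative (adjusted p 5.82e-10 to 0.037), and Slc7a11 by 1.66 ± 0.41, adjusted p = 0.0141. The Slc7a11 difference was lost without proximal WENR-minus replicate 1, distal WENR-plus replicate 2 or distal WENR-minus replicate 2 (1.18, 1.47 and 1.49, adjusted p = 0.0568, 0.0601 and 0.0628), with length-scaled counts (1.29, adjusted p = 0.0793) and without proximal Cdx2-sgRNA replicate 1 in both media (0.90, adjusted p = 0.0942), with a range of 3.22e-06 to 0.0942. Psat1 (1.64 ± 0.56, adjusted p = 0.0601) and Asns (1.22 ± 0.63, adjusted p = 0.2) fell short, and with a block for each culture 4 genes passed, Psat1 (1.59, adjusted p = 0.0152; range 9.74e-06 to 0.193) and Asns (1.22, adjusted p = 0.013; range 0.00155 to 0.677) among them. With that block 1969 of all 15289 genes were higher and 1529 lower, against 1507 and 1177 in the main fit.

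In Scramble-sgRNA organoids the same test passed for 0 of the 10 genes and for 0.0719% of all genes. Phgdh differed by 1.06 ± 0.42, adjusted p = 0.428 and Slc7a11 by 1.57 ± 0.41, adjusted p = 0.241, with 2 genes at an unadjusted p under 0.05, and DESeq2 called 1, Slc7a11 (1.52, adjusted p = 0.0257; range 4.04e-05 to 0.683). Whether withdrawal acted differently with Cdx2-sgRNA than with Scramble-sgRNA was tested in each region. In distal organoids 0 of 10 genes and 0% of all genes passed in edgeR, with 1 of the 10 at an unadjusted p under 0.05 and 0 called by DESeq2. The deeper drop of Psat1 in distal Cdx2-sgRNA than in distal Scramble-sgRNA organoids was −1.83 ± 0.57, adjusted p = 0.348 and so was not shown to differ. It passed with no filter on low counts (−1.81, adjusted p = 4.28e-06), and the range was 4.28e-06 to 0.808. Without the filter 2 of the 10 genes were called, and of all 27429 genes 163 were higher and 191 lower. In proximal organoids 0 of 10 passed against 3.6% of all genes, with 1 at an unadjusted p under 0.05 and 0 called by DESeq2, and Phgdh differed by 1.12 ± 0.42, adjusted p = 0.15. The difference of the guide effect between the regions passed for 0 of the 10 genes in WENR-minus (all genes 14.3%) and 0 in WENR-plus medium (all genes 4.98%), with 1 gene in each at an unadjusted p under 0.05 and 0 called by DESeq2 in each.

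The proximal Cdx2-sgRNA replicates stood apart for these genes. In WENR-minus medium 9 of 10 genes and in WENR-plus medium 8 of 10 were higher in replicate 1, against 0 to 9 of 10 in the 6 other groups, so the direction alone does not set this group apart. The size did. The difference exceeded 1 on the log2 scale for 5 genes in each medium, where 6.19% (WENR-minus) and 6.52% (WENR-plus) of all genes did so. The median absolute difference of the 10 genes was 1.09 and 0.91 in log2 CPM against 0.35 and 0.33 for all genes. In the 6 other groups that median ran from 0.22 to 0.51. Each replicate of this group is another clone of another mouse, and these cannot be told apart. Without replicate 1 in both media, an alternative added after the data were seen, Asns, Chac1 and Sesn2 were called lower with Cdx2-sgRNA in proximal WENR-minus organoids, and without replicate 2 none of the 10 was. Such a fit leaves 1 library in the group, and its spread is taken from the other groups.

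**Figure D4:**
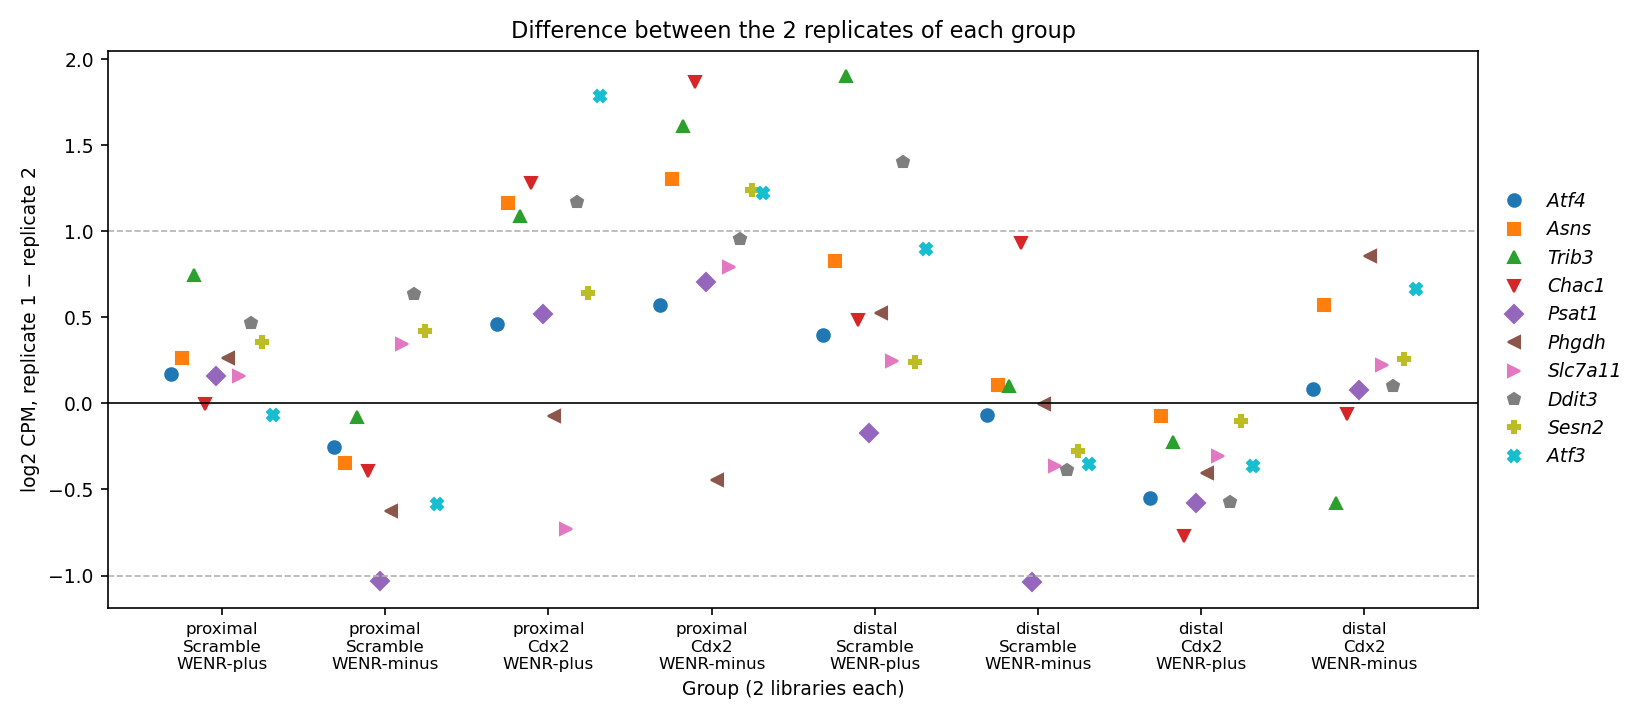
Difference between the replicates in log2 CPM (y axis, replicate 1 minus replicate 2) for each gene in each of the 8 groups (x axis), with dashed lines at −1 and 1. In both proximal Cdx2-sgRNA groups 5 of the 10 genes lie above 1.

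Other genes of the pathway were read as 55 genes in 5 lists, of which 53 were tested (not Slc7a3 and Fgf21). Withdrawal in distal Cdx2-sgRNA organoids downregulated 22 of the 53 and upregulated 7 (all genes 18.1% and 14.9%), with a median log2 fold change of −0.57 (all genes −0.097). In distal Scramble-sgRNA organoids 12 were downregulated and 4 upregulated, where 14.2% and 12.2% of all genes were (8 to 15 called when single libraries were left out, the lowest without WENR-minus replicate 1). Proximal Scramble-sgRNA organoids gave 3 and 3 (all genes 8.24% and 8.73%), and proximal Cdx2-sgRNA organoids 0 downregulated and 3 upregulated (all genes 2.98% and 3.42%). The difference between proximal and distal withdrawal in Cdx2-sgRNA organoids passed for 18 of the 53 genes and 17.6% of all genes, with proximal above distal in 16. In distal Cdx2-sgRNA organoids without WENR-minus replicate 2 the 29 calls became 19.

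By role, the tRNA synthetase genes, which charge tRNAs with amino acids, gave 7 of 13 downregulated in distal Cdx2-sgRNA and 2 in distal Scramble-sgRNA organoids, with medians of −1.02 and −0.34. Of all genes 18.1% and 14.2% were downregulated there, so the distal Scramble-sgRNA count lies near its background. The lowest was the valyl-tRNA synthetase gene Vars, at −3.03 ± 0.28, adjusted p = 1.4e-05 and −2.04 ± 0.27, adjusted p = 0.000202, and it fell in proximal Scramble-sgRNA organoids as well (−1.33 ± 0.26, adjusted p = 0.00363), though less than 2-fold without WENR-minus replicate 1 (−0.93, adjusted p = 0.0259; range 7.19e-08 to 0.0277). In Cdx2-sgRNA organoids its drop was larger in distal than in proximal colon by 2.63 ± 0.38, adjusted p = 0.00118. Of the 9 amino acid transporter genes tested, 5 were downregulated in distal Cdx2-sgRNA and 5 in distal Scramble-sgRNA organoids, and 1 was upregulated in distal Cdx2-sgRNA organoids. In proximal organoids 0 were downregulated with either guide, where 8.24% (Scramble-sgRNA) and 2.98% (Cdx2-sgRNA) of all genes were. The lowest was Slc43a1, a transporter of large neutral amino acids, at −3.45 ± 0.89, adjusted p = 0.00779 and −3.18 ± 0.90, adjusted p = 0.0151. Its distal Cdx2-sgRNA call was lost without WENR-minus replicate 2 (−2.77, adjusted p = 0.0736), with a range of 0.00021 to 0.0736, and its distal Scramble-sgRNA call without WENR-minus replicate 1, WENR-plus replicate 2 or WENR-minus replicate 2 (−2.90, −2.40 and −3.52, adjusted p = 0.102, 0.119 and 0.0607), with a range of 0.000953 to 0.119.

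The 10 further genes of serine, one-carbon, proline and transsulfuration metabolism held 6 downregulated in distal Cdx2-sgRNA (median −1.46), 4 in distal Scramble-sgRNA (median −0.58), 2 in proximal Scramble-sgRNA and 0 in proximal Cdx2-sgRNA organoids, where 18.1%, 14.2%, 8.24% and 2.98% of all genes were. Pycr1, which makes proline, was lowest at −2.83 ± 0.58, adjusted p = 0.00181 and −2.30 ± 0.55, adjusted p = 0.00633, with −1.65 ± 0.52, adjusted p = 0.0335 in proximal Scramble-sgRNA organoids. The call in distal Scramble-sgRNA organoids was lost without WENR-plus replicate 1 or WENR-minus replicate 1 (−1.76 and −1.76, adjusted p = 0.0503 and 0.0636), with a range of 3.36e-05 to 0.0636, and the proximal one without WENR-plus replicate 1, WENR-minus replicate 1 or WENR-plus replicate 2 (−1.39, −1.19 and −1.81, adjusted p = 0.153, 0.223 and 0.0723) and with length-scaled counts (−0.98, adjusted p = 0.328), with a range of 0.00371 to 0.328. Feedback and stress effectors had 4 of 13 upregulated and 1 downregulated in distal Cdx2-sgRNA, 3 and 1 in distal Scramble-sgRNA, 3 and 0 in proximal Scramble-sgRNA and 1 and 0 in proximal Cdx2-sgRNA organoids, where 14.9%, 12.2%, 8.73% and 3.42% of all genes were upregulated. Ppp1r15a, whose product GADD34 lets eIF2alpha be dephosphorylated, led in distal organoids at 2.01 ± 0.28, adjusted p = 0.000156 and 1.43 ± 0.28, adjusted p = 0.00196. Sqstm1, the autophagy receptor p62, led in proximal organoids at 1.53 ± 0.16, adjusted p = 0.0002 and 1.04 ± 0.16, adjusted p = 0.00327, the latter lost without WENR-minus replicate 1 (0.83, adjusted p = 0.0114), with a minimum of 10 counts (0.97, adjusted p = 0.00211) and with only the groups compared (1.04, adjusted p = 0.133), with a range of 9.74e-09 to 0.133. Of the 8 genes of eIF2alpha kinases and their regulators, 2 were upregulated and 3 downregulated in distal Cdx2-sgRNA organoids (all genes 14.9% and 18.1%), with Eif2ak1, the HRI kinase, highest at 1.47 ± 0.14, adjusted p = 1.88e-05.

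**Figure D5:**
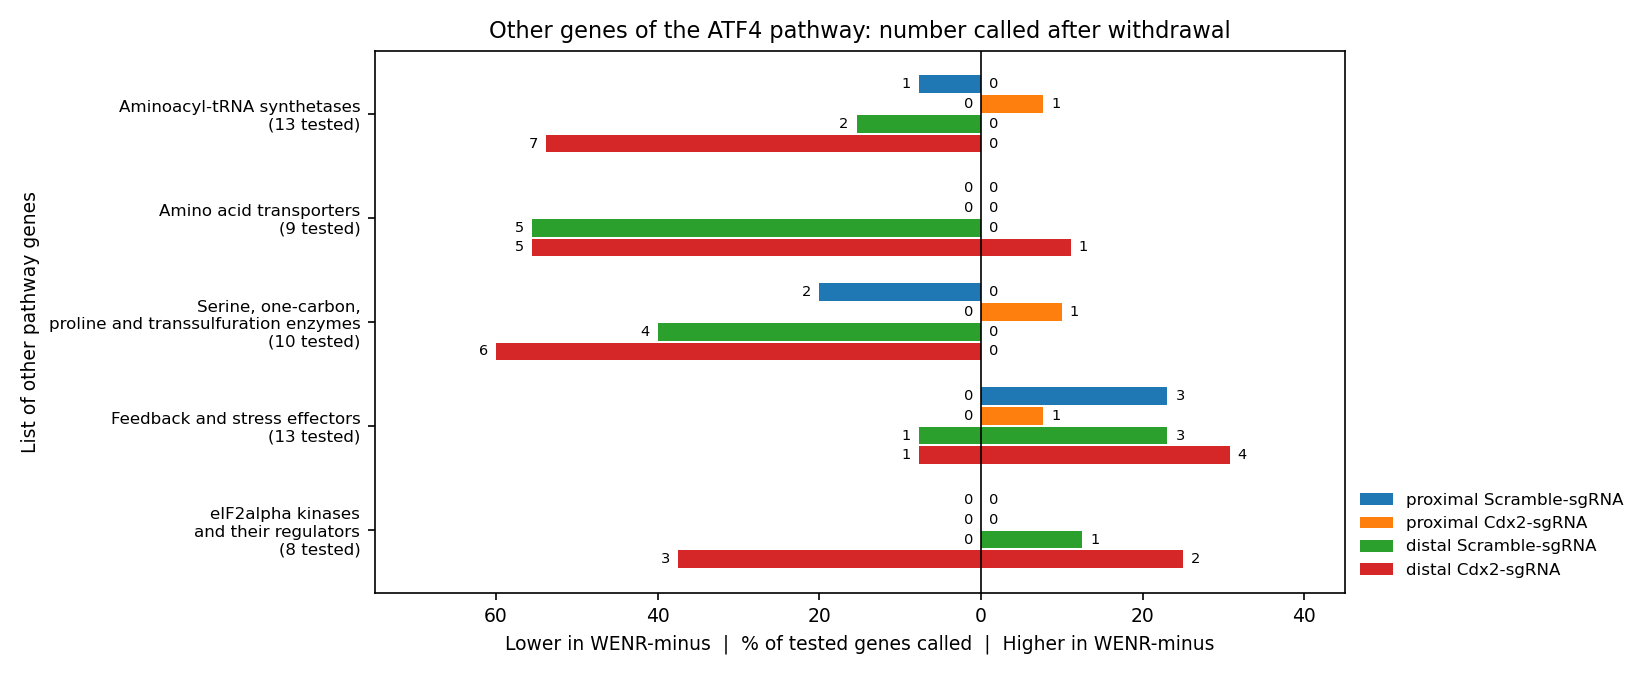
Genes called in the 5 lists of other ATF4 pathway genes in the 4 withdrawal comparisons, as bars in percent of the genes tested with the number beside each, upregulated to the right of 0 and downregulated to the left. The distal Cdx2-sgRNA comparison holds 22 downregulated and 7 upregulated genes of 53.

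The proximal Cdx2-sgRNA calls outside these were the tryptophanyl-tRNA synthetase gene Wars (1.003 ± 0.25, adjusted p = 0.0233) and the cystathionine beta-synthase gene Cbs (1.67 ± 0.43, adjusted p = 0.028), both upregulated by withdrawal. Wars lost its call without WENR-plus replicate 2 or WENR-minus replicate 2 (0.69 and 0.85, adjusted p = 0.159 and 0.0981), with a range of 8.12e-05 to 0.369, and Cbs without WENR-plus replicate 1, WENR-minus replicate 1 or WENR-plus replicate 2 (1.62, 1.30 and 1.74, adjusted p = 0.0991, 0.139 and 0.133), with a range of 0.0121 to 0.525. Both were also lost when only the libraries of the groups compared were fitted (1.01, adjusted p = 0.167 and 1.69, adjusted p = 0.227), Wars with a minimum of 10 counts (0.95, adjusted p = 0.0174) and Cbs with length-scaled counts (0.56, adjusted p = 0.525). In proximal Scramble-sgRNA organoids withdrawal lowered Cbs (−1.54 ± 0.31, adjusted p = 0.00378, range 9.37e-05 to 0.0443), a value added after it was seen. The difference between the guides in this response was 3.21 ± 0.53, adjusted p = 0.0159, and it was lost with length-scaled counts (2.01, adjusted p = 0.106), without Scramble-sgRNA WENR-plus replicate 1, Scramble-sgRNA WENR-minus replicate 1, Scramble-sgRNA WENR-plus replicate 2 or Cdx2-sgRNA WENR-plus replicate 2 (3.18, 2.99, 3.20 and 3.27, adjusted p = 0.0538, 0.0621, 0.0548 and 0.0505), and without Cdx2-sgRNA replicate 1 or 2 in both media (2.74, adjusted p = 0.0714 and 3.63, adjusted p = 0.0838), with a range of 1.08e-05 to 0.106.

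Between the guides, the widest differences among the other pathway genes were those of transsulfuration, which turns homocysteine into cysteine. Cbs was lower with Cdx2-sgRNA than with Scramble-sgRNA in all 4 comparisons, at −6.99 ± 0.42, adjusted p = 1.81e-06 in proximal WENR-plus, −3.78 ± 0.36, adjusted p = 2.58e-05 in proximal WENR-minus, −2.998 ± 0.34, adjusted p = 0.00741 in distal WENR-plus and −2.52 ± 0.40, adjusted p = 0.00573 in distal WENR-minus organoids. The proximal WENR-minus value falls outside the rule for named genes and was added after it was seen. The distal WENR-plus call was lost when only the libraries of both groups were fitted (−2.98, adjusted p = 0.257; range 5.36e-12 to 0.257). Cth, the enzyme gene of the step that follows, was lower in proximal Cdx2-sgRNA organoids in WENR-minus medium (−3.88 ± 0.65, adjusted p = 0.00111), and there it was also lower in proximal than in distal colon (−3.19 ± 0.64, adjusted p = 0.00179). Slc7a5, which encodes the large neutral amino acid transporter LAT1, was higher with Cdx2-sgRNA in proximal WENR-minus (2.33 ± 0.29, adjusted p = 0.000163) and WENR-plus organoids (2.12 ± 0.29, adjusted p = 0.000475), and higher in proximal than in distal Cdx2-sgRNA WENR-minus organoids (3.51 ± 0.31, adjusted p = 8.4e-06), as was Vars (2.08 ± 0.27, adjusted p = 0.000127). Over the 53 genes, Cdx2-sgRNA gave 3 upregulated and 5 downregulated in proximal WENR-minus (all genes 9.04% and 12.1%), 4 and 6 in proximal WENR-plus (all genes 6.93% and 8.94%), 2 and 2 in distal WENR-minus (all genes 2.24% and 3%) and 0 and 1 in distal WENR-plus organoids (all genes 0.137% and 0.124%). Proximal against distal colon gave 13 higher and 5 lower in Cdx2-sgRNA WENR-minus (all genes 18.1% and 16.5%), 5 and 1 in Scramble-sgRNA WENR-minus (all genes 2.88% and 3.2%), 3 and 3 in Cdx2-sgRNA WENR-plus (all genes 7.4% and 9.57%) and 1 and 1 in Scramble-sgRNA WENR-plus organoids (all genes 0.68% and 1.07%).

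Lists of neighbouring stress programmes were kept beside these. Withdrawal called 1 of 8 targets of the antioxidant factor NRF2 up and 2 down in distal Cdx2-sgRNA organoids, 2 and 1 in distal Scramble-sgRNA, 1 and 0 in proximal Scramble-sgRNA and 0 and 0 in proximal Cdx2-sgRNA organoids. For 6 p53 targets the counts in the same order were 2 and 0, 2 and 1, 1 and 0, and 0 and 1. For 6 genes of protein folding in the endoplasmic reticulum they were 1 and 0, 1 and 0, 1 and 0, and 0 and 1. Of all genes 14.9% and 18.1%, 12.2% and 14.2%, 8.73% and 8.24%, and 3.42% and 2.98% were up and down in these comparisons.

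The 10 genes did not share a single pattern over the 8 groups. As a description over 8 group means of log2 CPM, Phgdh and Slc7a11 were most alike among the members (Pearson r = 0.87), followed by Atf4 and Chac1 (0.86) and Psat1 and Phgdh (0.84). Atf4 and Trib3 each followed the mean of the other members with r = 0.83, Ddit3 with 0.0033 and Atf3 with −0.24. Among 9898 genes, those most like the mean of the 10 standardised patterns were Lars2 (0.90), which encodes the mitochondrial leucyl-tRNA synthetase, Kcnk1 (0.90), Tnfrsf12a (0.89), Washc1 (0.89) and Mblac2 (0.89). The 8 points share libraries, guides and media and are not independent.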

How the data were processed

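Proximal and distal mouse colon organoids were profiled by RNA-seq (RNeasy extraction, SMARTer Stranded Total RNA kit, paired-end HiSeq reads), with 2 libraries in each of 8 groups. The labels give the molecule as genomic DNA, although the protocol and the files are those of RNA. The deposited files hold estimated counts for each transcript. For these the authors ran Salmon 1.1.0 on GENCODE vM23 (mm10), in paired-end mode with the library type, strand included, left to automatic detection. The submitters' processing notes name DESeq2 1.32 after it, and the study's software list gives another DESeq2 version. The deposited TPM and effective lengths come from the same Salmon run by the authors.

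Estimated counts were summed per gene with GENCODE vM21 (GRCm38), which matched 139864 of 140748 transcripts, and the 884 others, which held 0.257 to 0.509% of a library, were not used. Of 2 identifiers named Ddit3, the one that held all reads was used. Sums were rounded and fitted in R 4.3.3 with edgeR 4.0.16 (filterByExpr, TMM, 1 coefficient per group over all 16 libraries, glmQLFit and glmQLFTest, 8 residual degrees of freedom), and p-values were adjusted by Benjamini-Hochberg over the 15289 genes of each contrast. Standard errors were derived from each fold change and its F statistic (fold change over root F). There were 12 comparisons of groups and 6 differences between comparisons. Ribosomal RNA of mitochondria made up 15.4 to 28.0% of the counts. The test was run on simulated data first.

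All 10 members are named. Of each list the called gene with the highest and the one with the lowest log2 fold change in a comparison could be named. The 5 genes most like the members were ranked among genes with a mean of at least 5 CPM over all libraries. The members, lists and tests were chosen with earlier results of these data known. Alternatives were RLE scaling, no filter, a minimum of 10 counts in every library, the replicate number as a block, length-scaled counts from TPM, only the libraries compared, no fold threshold, DESeq2 1.42.0 and leaving out each library. A block for each culture, and leaving out a proximal Cdx2-sgRNA replicate in both media, were added after the data were seen. Replicate differences of the same culture correlated between the media (r = 0.28 to 0.59 over 4 pairs, all above 0.1) and those of different cultures hardly did (−0.059 to 0.19 over 24 pairs), so the media are paired within a culture by its region, guide and replicate number.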

Additional observations from a re-analysis of the deposited data

Results flagged for a closer look

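The response to withdrawal differed between proximal and distal Cdx2-sgRNA organoids, by the test of the difference itself (edgeR, proximal minus distal), for Phgdh (2.20 ± 0.43, adjusted p = 0.00459) and Slc7a11 (1.66 ± 0.41, adjusted p = 0.0141) and for the synthetase gene Vars (2.63 ± 0.38, adjusted p = 0.00118). For Phgdh all 4 distal libraries in WENR-minus lay below all 4 distal libraries in WENR-plus medium, whereas the proximal Cdx2-sgRNA libraries overlapped between the media. The Slc7a11 difference was lost under the alternatives named with it above. It was of like size in Scramble-sgRNA organoids (1.57 ± 0.41, adjusted p = 0.241), where edgeR's unadjusted p was 0.00257 against 0.00177 with Cdx2-sgRNA. It is thus not shown to be particular to Cdx2-sgRNA organoids. Cell markers differed in the same test, with 4 of 5 proliferation markers higher and 4 of 5 colonocyte and 2 of 6 epithelial markers lower (17.6% of all genes in either direction). The summed proliferation markers read 693 to 802 CPM in WENR-plus and 697 to 844 CPM in WENR-minus proximal Cdx2-sgRNA libraries, against 1198 to 1628 and 142 to 193 CPM in the distal ones. They also fell in proximal Scramble-sgRNA libraries (1684 to 1810.4 and 297 to 533 CPM), where withdrawal called neither Phgdh (−0.93 ± 0.30) nor Slc7a11 (0.38 ± 0.29). The part of these markers was not tested. In proximal organoids the response of Cbs to withdrawal differed between Cdx2-sgRNA and Scramble-sgRNA by 3.21 ± 0.53, adjusted p = 0.0159, by the same kind of test, and it was lost under the alternatives named with it above. In that test 2 of 5 proliferation markers were higher and 2 of 5 colonocyte and 2 of 6 epithelial markers lower (3.6% of all genes in either direction). Their part was not tested.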

How the results depend on the processing

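With 2 libraries in a group the calls rest on few samples, and where a library is left out the lone library of its group is assumed to vary like the other groups. Over the printed fold changes of the members, called values stayed called in 159 of 166 recomputations under other settings and in 72 of 114 with libraries left out, none of them with a turned sign, and values not called passed in 35 of 241 and in 7 of 172. The replicate block (the number as a block over all groups) moved the count of members called from 1 to 2 between the guides in proximal WENR-minus organoids and no other count past 1.5 times, while the block for each culture gave 4 for 2 (withdrawal, proximal Scramble-sgRNA), 1 for 0 (proximal Cdx2-sgRNA), 5 for 3 (distal Scramble-sgRNA) and 4 for 2 (proximal minus distal withdrawal, Cdx2-sgRNA). Of all 15289 genes, 1458 were higher and 1930 lower with the replicate block there (1382 and 1857 in the main fit). With the culture block they were, in that order, 1570 and 1690, 735 and 811, 2104 and 2523, and 1969 and 1529. The main fit gave 1335 and 1260, 523 and 455, 1872 and 2167, and 1507 and 1177. Without the filter, the members called were 4 for 2, 1 for 0 (withdrawal, proximal Scramble-sgRNA and Cdx2-sgRNA), 2 for 1 (guides, proximal and distal WENR-minus), 1 for 0 (guides, distal WENR-plus), 5 for 2 (regions, Scramble-sgRNA WENR-minus), 1 for 0 in both differences of guide effects by region, 2 for 0 in both differences of withdrawal by guide, and 2 for 0 and 5 for 2 in those by region (Scramble-sgRNA, Cdx2-sgRNA). Of the 27429 genes then tested, those higher and lower were, in that order, 1657 and 1454, 733 and 751, 1770 and 2077, 748 and 783, 371 and 215, 783 and 836, 1325 and 1860 (WENR-minus), 757 and 1106 (WENR-plus), 694 and 902 (proximal), 163 and 191 (distal), 225 and 229, and 1696 and 1619. A minimum of 10 counts and DESeq2 each gave 1 for 0 (withdrawal, proximal Cdx2-sgRNA) and 2 for 1 (guides, proximal WENR-minus), and DESeq2 1 for 0 (withdrawal by region, Scramble-sgRNA). Over all genes, higher and lower were 403 and 412, then 804 and 986, of 10202 with that minimum. In DESeq2 they were 612 and 561, 1515 and 1811, and 71 and 80 of 27429. Length-scaled counts gave 1 for 2 (withdrawal by region, Cdx2-sgRNA), where 1229 of all 15354 genes were higher and 1095 lower. Fitting only the groups compared gave 0 for 1 and 0 for 2 (guides, proximal WENR-minus and WENR-plus) and 4 for 2 (regions, Scramble-sgRNA WENR-minus). Over all genes, higher and lower were then 1078 and 1450 of 13339, 899 and 1042 of 13937, and 351 and 479 of 12738. Leaving out single libraries gave 0 to 1 (withdrawal, proximal Scramble-sgRNA, reported as 2 upward, the 1 downward without WENR-minus replicate 2), 3 to 4 (distal Cdx2-sgRNA, 5), 0 to 3, 0 to 2 and 0 to 1 (guides, proximal WENR-minus, proximal WENR-plus and distal WENR-minus, reported as 1, 2 and 1), 0 to 1 (regions, Scramble-sgRNA WENR-minus, 2), 0 to 2 (Cdx2-sgRNA WENR-plus, 0) and 1 to 3 (withdrawal by region, Cdx2-sgRNA, 2). Without proximal Cdx2-sgRNA replicate 1 in both media the counts were 3 for 1 (guides, proximal WENR-minus), 2 for 0 (regions, Cdx2-sgRNA WENR-plus), 2 for 0 in both differences of guide effects by region and 1 for 2 (withdrawal by region), and without replicate 2 they were 0 for 1 and 1 for 2 (guides, proximal WENR-minus and WENR-plus) and 1 for 0 (guide effects by region, WENR-minus).

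Of the other pathway genes, those called in proximal Cdx2-sgRNA withdrawal (3) were 6 with no fold threshold and with no filter, 0 with a minimum of 10 counts and with only the groups compared, 5 with the culture block, 1 without replicate 2 in both media and 1 to 7 without single libraries. With no fold threshold the proximal Scramble-sgRNA count went from 6 to 12 and the distal Scramble-sgRNA count from 16 to 25. The regional count in Cdx2-sgRNA WENR-minus organoids went from 18 to 11 with only the groups compared. Single libraries left out gave 8 to 15, 19 to 26 and 11 to 16 for the distal Scramble-sgRNA, distal Cdx2-sgRNA and regional counts. In proximal Cdx2-sgRNA withdrawal, leaving out single libraries turned the sign of Chac1 (−0.34 to 1.66, negative without WENR-minus replicate 1), Atf3 (−0.20 to 1.67, negative there and, at −0.14, without WENR-plus replicate 2), Slc7a11 (−0.49 to 0.34, positive without replicate 2 of either medium, 0.27 in WENR-minus) and Phgdh (−0.049 to 0.43, negative without WENR-minus replicate 2), and without replicate 2 in both media Slc7a11 gave 0.69 and Phgdh −0.0089. In distal Scramble-sgRNA withdrawal Asns gave −0.67 to 0.12, positive without WENR-plus replicate 1. None of these values was called. The cause of these changes was not tested.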
